A study of Homo sapiens with 16 samples.

Results

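Loss of ITGA7 in the SAS cell line was examined by ATAC-seq, in which a transposase cuts and tags open chromatin, with 8 SAS libraries of the 16 in the series. SAS is an established line of HPV-negative squamous carcinoma of the head and neck. The control group (siControl, n = 4) received a non-targeting siRNA and the treated group (siITGA7, n = 4) an siRNA against ITGA7. All 8 cultures were placed in a laminin-rich matrix 24 h after transfection, and nuclei were taken at 48 h. The labels describe the libraries as independent biological replicates, and they give each a batch number from 1 to 4, shared by 1 library of each group. The growth and treatment texts name a pool of siRNAs and a matrix of 1 mg per ml, but they are written for RNA work. Counts were available for 164980 peaks that had been defined jointly with a second line, Cal33.

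Integrins are paired receptors that tie the cell to its matrix. The alpha 7 chain, encoded by ITGA7, pairs with beta 1 and binds laminin, and it is best known from muscle. Signals from such contacts run through focal adhesion kinase, the actin skeleton and the nuclear envelope. Open promoters and enhancers are the places where transcription factors reach DNA, so the count of transposase cuts in a peak is read as its accessibility.

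At ITGA7 itself no peak passed the test. The peak over the upstream end of the gene (chromosome 12, 55715815 to 55718019, GRCh38) also covers the start of BLOC1S1, a subunit of a lysosome-related complex, and cannot be given to either gene. It held 68, 35, 116 and 96 counts in siControl libraries 1 to 4 and 19, 25, 19 and 33 counts in siITGA7 libraries 1 to 4. On the scale of log2 CPM (CPM being counts scaled to a common library total, with a prior count of 2) the groups overlapped, with 4.70 to 5.15 in siControl and 4.47 to 5.10 in siITGA7. The log2 change was -0.27 ± 0.18 (SE, n = 4 per group, adjusted p = 0.395). The other 3 peaks in ITGA7 held at most 22 counts in a library and were too low to be tested. An siRNA acts on the transcript, so these counts do not check the knockdown.

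The siITGA7 libraries were shallow. Total counts were 3496385, 1766033, 4870187 and 3592309 in siControl 1 to 4 and 758590, 1434728, 1212811 and 1867047 in siITGA7 1 to 4, so the control mean was 2.60 times as high (exact permutation p = 0.0571). Tested peaks held a median of 20 to 56 counts in siControl libraries and 9 to 22 in siITGA7 libraries. The ranges of depth overlap through siControl 2 and siITGA7 4, which serve below as a pair of similar depth. Of 10 squamous epithelial markers 9 had an open start peak, including KRT5, KRT14, SFN and CDH1, and the summed level of these start peaks was 315 to 346 CPM in siControl and 325 to 357 CPM in siITGA7. TP63 had no peak at its RefSeq start. Among markers of other cells 5 of 8 fibroblast, 3 of 5 endothelial and 3 of 6 blood markers had no start peak, and PTPRC, PECAM1, LUM and DCN were among those without one. The rest had start peaks. In siControl their mean was 29.4 CPM for COL1A1, 23.4 for VWF and 20.0 for CD14, beside 19.9 for KRT14 and 20.4 for CDH1. COL1A2, PDGFRA, CDH5, CD3E and SPI1 had 3.60 to 19.6 CPM. Level at the start thus did not set squamous markers apart from all others.

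Peaks at gene starts held a smaller share of the counts in every siITGA7 library. Peaks whose centre lay within 1 kb of the annotated start took 28.5, 28.0, 28.7 and 28.9% of the counts in siControl 1 to 4 and 25.8, 25.2, 25.7 and 25.3% in siITGA7 1 to 4. The means were 28.5% ± 0.387 and 25.5% ± 0.308 (SD, n = 4), with no overlap and a difference of -3.04 points. The two-sided exact permutation p was 0.0286, the smallest that 4 against 4 allows, or 0.0357 after adjustment over the 10 shares measured. Without chromosome 12 and contigs the difference was -2.85 points (exact permutation p = 0.0286). In the pair of similar depth the values were 28.0% in siControl 2 and 25.3% in siITGA7 4. Paired by batch number, the difference had an exact sign-flip p of 0.125, the smallest that 4 pairs allow, and its sign was the same in every batch.

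Distant and narrow peaks took a larger share of the counts over all peaks, chromosome 12 and contigs included. These shares were not measured without those sequences. Shares of the classes are tied to each other, since a fall in 1 class leaves a larger share to the rest. Peaks 10 to 100 kb from a start went from 39.6% ± 0.193 to 41.2% ± 0.218 of the counts, and those over 100 kb away from 3.22% ± 0.115 to 3.79% ± 0.176, a ratio of 1.18 (adjusted p = 0.0357 each, exact permutation test). The share at 1 to 10 kb did not pass, at 28.3% ± 0.364 and 28.9% ± 0.288 (adjusted p = 0.0952, exact permutation test). Peaks up to 818 bp wide rose from 27.8% ± 0.566 to 30.4% ± 0.160, while peaks wider than 1609 bp fell from 31.4% ± 0.522 to 30.0% ± 0.125 (adjusted p = 0.0357 each, exact permutation test). The strongest relative shift lay on contigs, the sequences of the reference that have no set position on a chromosome. They held 0.585, 0.609, 0.569 and 0.561% of the counts in siControl 1 to 4 and 0.989, 1.10, 1.13 and 0.938% in siITGA7 1 to 4, a ratio of means of 1.79 (adjusted p = 0.0357, exact permutation test). The pair of similar depth gave 0.609% and 0.938%. The share of chromosome 12 rose from 7.74% ± 0.109 to 8.09% ± 0.144 (adjusted p = 0.0357, exact permutation test).

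**Figure D1:**
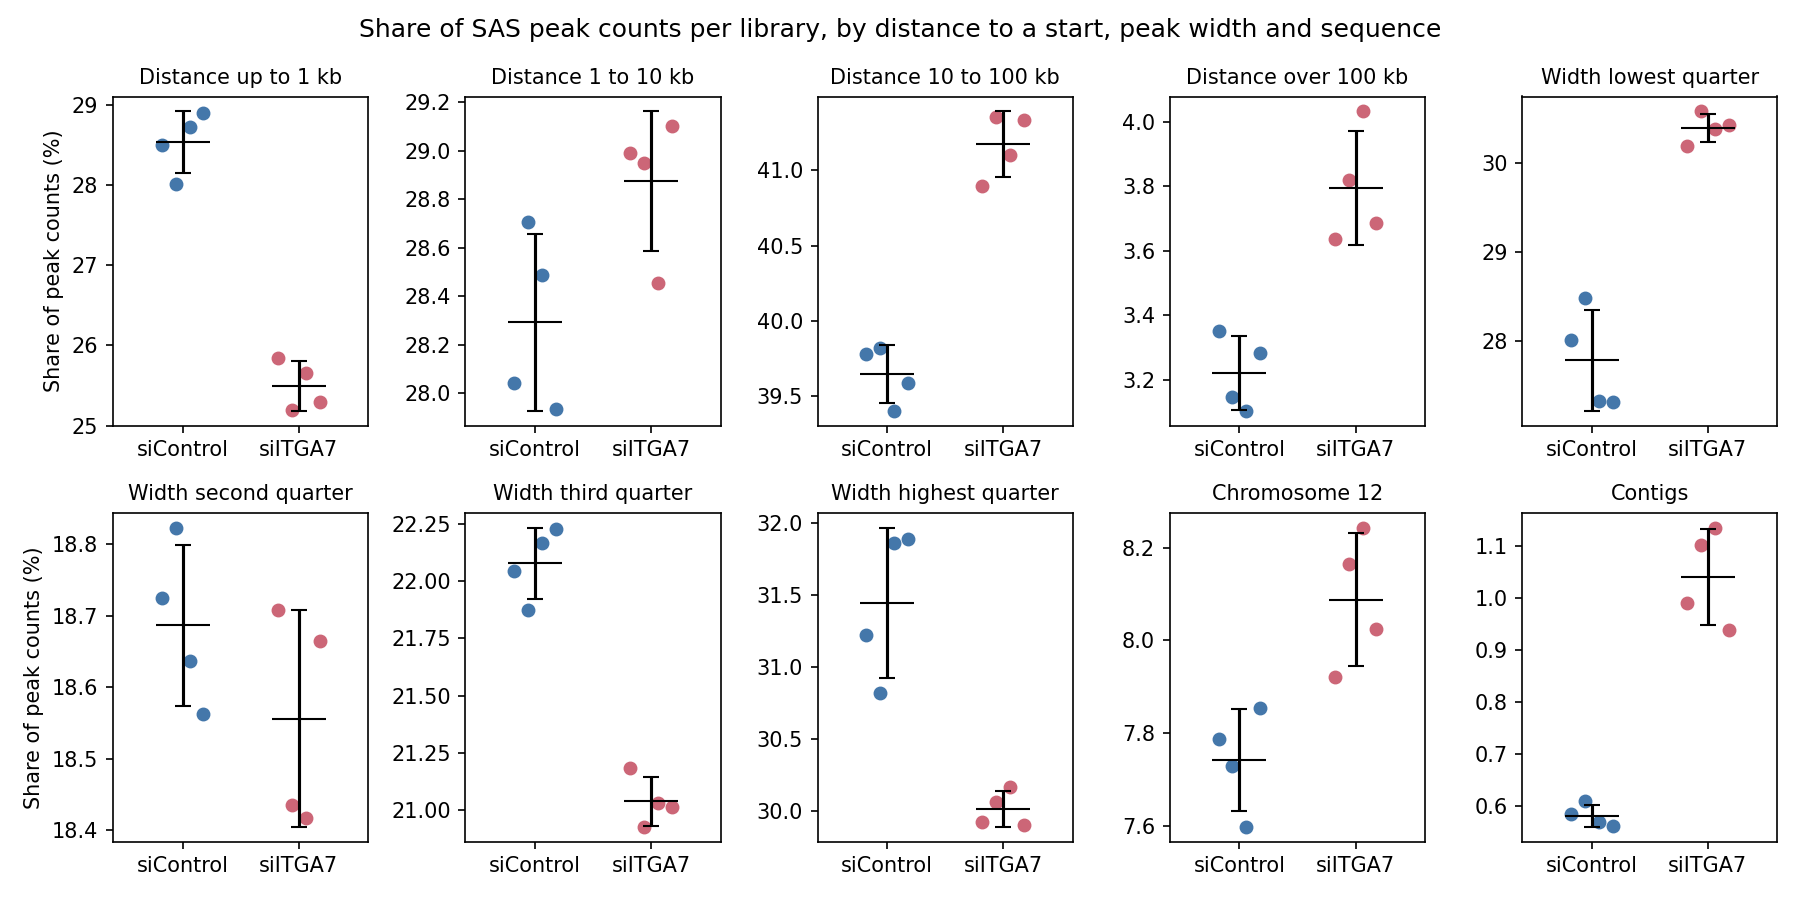
Share of all peak counts (%, y axis, which does not start at 0) in each SAS library, for 4 classes of distance to the annotated start, 4 classes of peak width, chromosome 12 and contigs. Points are libraries and black bars are the mean ± SD (n = 4). The groups do not overlap for peaks up to 1 kb from a start, where siITGA7 libraries are lower, nor on contigs, where they are higher. They do overlap at 1 to 10 kb and in the second width class.

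Single peaks were tested with edgeR's quasi-likelihood test, and a peak was called at an adjusted p under 0.05. Of 43600 peaks that passed the filter on low counts, 1762 were higher (4.04% of those tested) and 1305 lower (2.99%), 7.03% in all. The libraries of the groups were fully separate at 11.6%, and at 20.4% on chromosome 12 and 46% on contigs. Without chromosome 12 and contigs 1191 of 40291 peaks were higher (2.96%) and 1215 lower (3.02%), 5.97% in all, and the groups did not overlap at 10.8%. The excess of higher calls over the whole set thus lay on chromosome 12, with 485 of 3135 peaks higher (15.5%) and 90 lower (2.87%), and on contigs, with 86 of 174 higher (49.4%) and 0 lower. On contigs DESeq2 called 57 higher and 0 lower, and 1 peak was lower at an unadjusted p under 0.05 in edgeR.

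Peaks called higher and lower outside chromosome 12 and contigs differed in size of change, level and width. The higher ones had a median change of 0.90 on the log2 scale (median SE 0.24), and 40.6% of them reached a 2-fold change. The lower ones changed by a median of 0.56 (median SE 0.16), with 4.77% reaching a 2-fold change. Higher peaks were also weaker and narrower, with a median level of 13.3 CPM and width of 1063 bp against 40.9 CPM and 1463 bp. A peak with a larger SE needs a larger change to be called, so size of change and level were not separated here.

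The counts of calls depend on the libraries and on the tool. Without siITGA7 replicate 4, the deepest of its group, 1977 peaks were called over all and 1499 outside chromosome 12 and contigs. Without both libraries of batch 4 the counts were 1446 and 1049. DESeq2 called 501 higher and 238 lower outside chromosome 12 and contigs. With no filter on low counts 1993 were higher and 3991 lower there. After every library had been thinned to 758590 counts, 17847 peaks could be tested there, of which 216 were higher and 147 lower.

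Distance to the start separated the directions. Outside chromosome 12 and contigs, 714 of 9745 peaks within 1 kb of a start were lower (7.33%) and 95 higher (0.975%), with a median log2 change of -0.14 over all of them. At 1 to 10 kb the counts turned to 419 higher and 200 lower of 12090, and at 10 to 100 kb to 581 higher and 277 lower of 17264. Over 100 kb away 96 of 1192 were higher (8.05%) and 24 lower. Medians of these 3 classes were 0.05, 0.05 and 0.04, but with offsets that follow the level, a breakdown added after the data were seen, they were 0.01, -0.01 and -0.02, so their sign depends on the scaling. Over all peaks beyond 1 kb the median was 0.05, and -0.05 with no filter on low counts. Within 1 kb the trended offsets gave 108 higher and 594 lower, with a median of -0.13. In the thinned libraries 93 peaks within 1 kb were lower and 17 higher, with a median of -0.11. Measured to the nearest RefSeq start, a definition added after the data were seen, 799 of 10185 peaks within 1 kb were lower and 74 higher.

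Level divided the peaks as well. In the weakest class, under 10.7 CPM on average, 447 of 10220 peaks were higher and 31 lower (median 0.13), while in the strongest, over 27.9 CPM, 250 of 9892 were higher and 849 lower (median -0.10). This order of medians was not present with the trended offsets, which remove a trend with level by construction: they were -0.00728 in the weakest class (317 higher, 92 lower) and -0.04 in the strongest (391 higher, 568 lower). Within 1 kb of a start the strongest class held 546 lower peaks of 4400 (12.4%) and 32 higher, and the weakest 9 lower and 25 higher of 1015. The difference by distance was present at each level: medians were 0.03, -0.09, -0.16 and -0.17 from weakest to strongest within 1 kb, against 0.15, 0.08, 0.03 and -0.03 at 1 to 10 kb. With the trended offsets the medians within 1 kb were -0.11, -0.18, -0.17 and -0.11, against 0.00324, -0.00886, 0.02 and 0.02 at 1 to 10 kb. Of the 154 strong peaks over 100 kb from any start 29 were higher (18.8%) and 11 lower. Depth moves with these classes, since a weak peak holds few counts in a shallow library, and its part was not tested. The weakest class also lies nearest to the filter on low counts, which a peak could pass through the libraries of 1 group alone. With no such filter 1993 peaks were higher and 3991 lower outside chromosome 12 and contigs. The part of the filter in the counts by level was not tested.

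**Figure D2:**
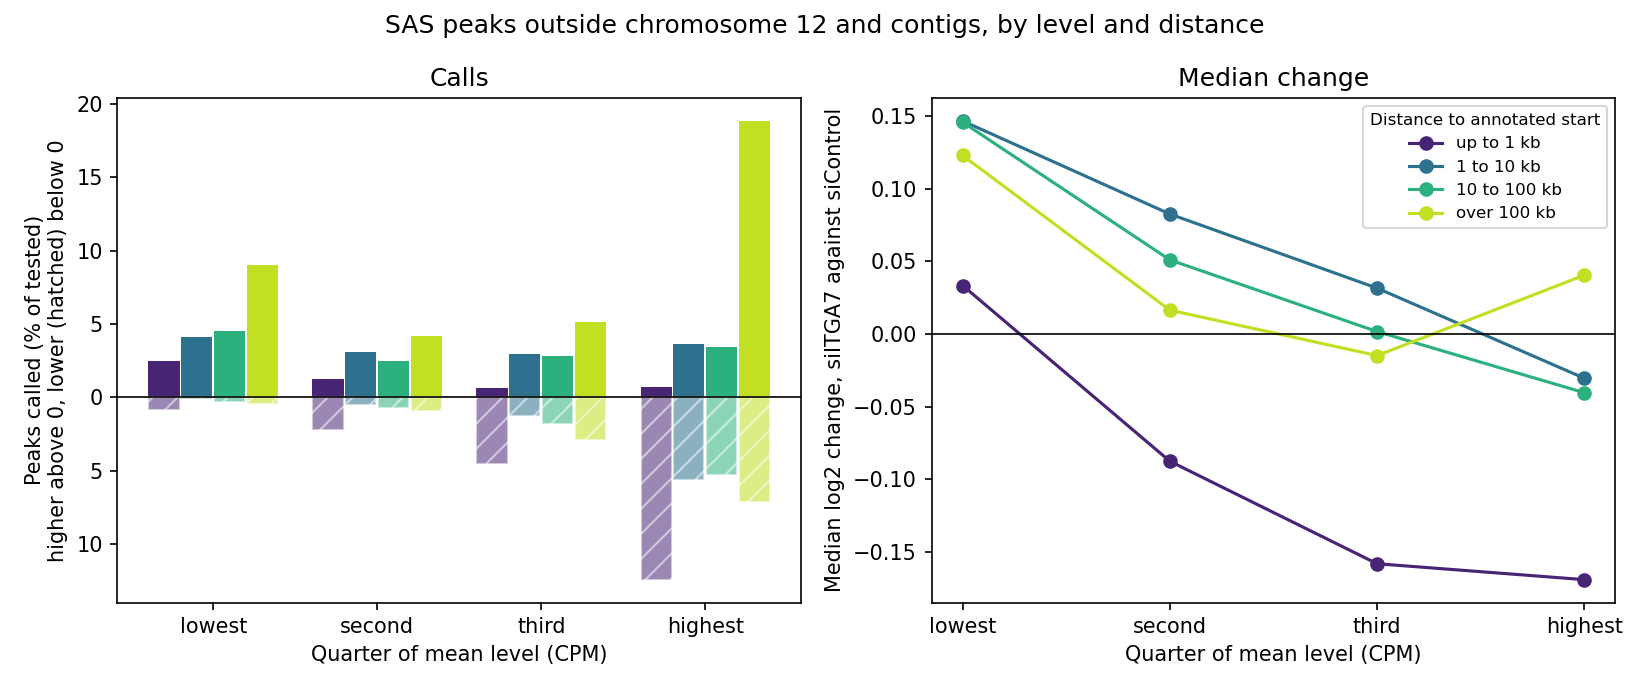
Left, percentage of tested SAS peaks called higher (above 0) or lower (hatched, below 0) outside chromosome 12 and contigs, by class of mean level (x axis) and distance to the annotated start (colour). Right, median log2 change of the same classes. Peaks within 1 kb of a start have the lowest median at each level, and 12.4% of the strongest of them were lower.

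Width gave a similar order. Among the narrowest peaks 405 of 9626 were higher and 83 lower, and among the widest 310 of 10240 were higher and 482 lower. Near starts the widest class had 314 lower and 31 higher of 3487, and at 10 to 100 kb the same width class had 70 lower and 148 higher of 3746. Among peaks of that width the direction thus differed by distance.

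By gene type, lower calls were most frequent at promoters of protein-coding genes. In the promoter class of the deposited annotation 730 of 9419 protein-coding peaks were lower (7.75%) and 100 higher. Promoters of long noncoding RNA genes had 77 lower (4.96%) and 31 higher of 1552, those of pseudogenes 18 and 10 of 349, and those of small RNA genes 6 and 7 of 183. At the ends of protein-coding transcripts the direction was the opposite, with 82 of 1393 higher (5.89%) and 8 lower. Protein-coding introns had 387 higher and 150 lower of 12272, and exons 83 and 77 of 1687. Whether these shares differ between gene types was not tested, and promoters of noncoding genes were also weaker (median 21.3 CPM against 26.3 CPM).

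Cal33 was transfected and cultured in the same way and offers a second view of these classes, with its own controls. In Cal33 4.52% of tested peaks were higher and 4.67% lower. Of the SAS peaks within 1 kb of a start, outside chromosome 12 and contigs, 9366 were also tested in Cal33, and there 971 were lower and 149 higher with a median of -0.13. Wide peaks went another way in the lines: in the widest class 882 were higher and 354 lower in Cal33. Single peaks that differed between the lines were few, 722 of 94918 (0.761%) by the interaction contrast over all 16 libraries. Without SAS siControl replicate 3, siControl replicate 4 or siITGA7 replicate 4 that count was 470, 446 or 421. The contrast takes in the spread of both lines, so few calls do not show that the lines responded alike. At a chromosome 4 peak nearest to LOC101927209 a difference of 2.71 ± 1.00 (SE) did not pass it (adjusted p = 0.265).

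Sequence at the start differed between lower and other start peaks. RefSeq windows of 300 bases, from 250 before the start to 50 after it, could be set beside 10473 start peaks outside chromosome 12 and contigs. Median GC content was 68.7% for the 795 lower peaks, 65.7% for the 9584 without a call and 58.2% for the 94 higher ones. From the class of lowest to that of highest GC the share that was lower ran 4.10, 7.49, 8.56 and 10.4%, and the median log2 change -0.07, -0.16, -0.18 and -0.19. GC content and level of these peaks were not separated.

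**Figure D3:**
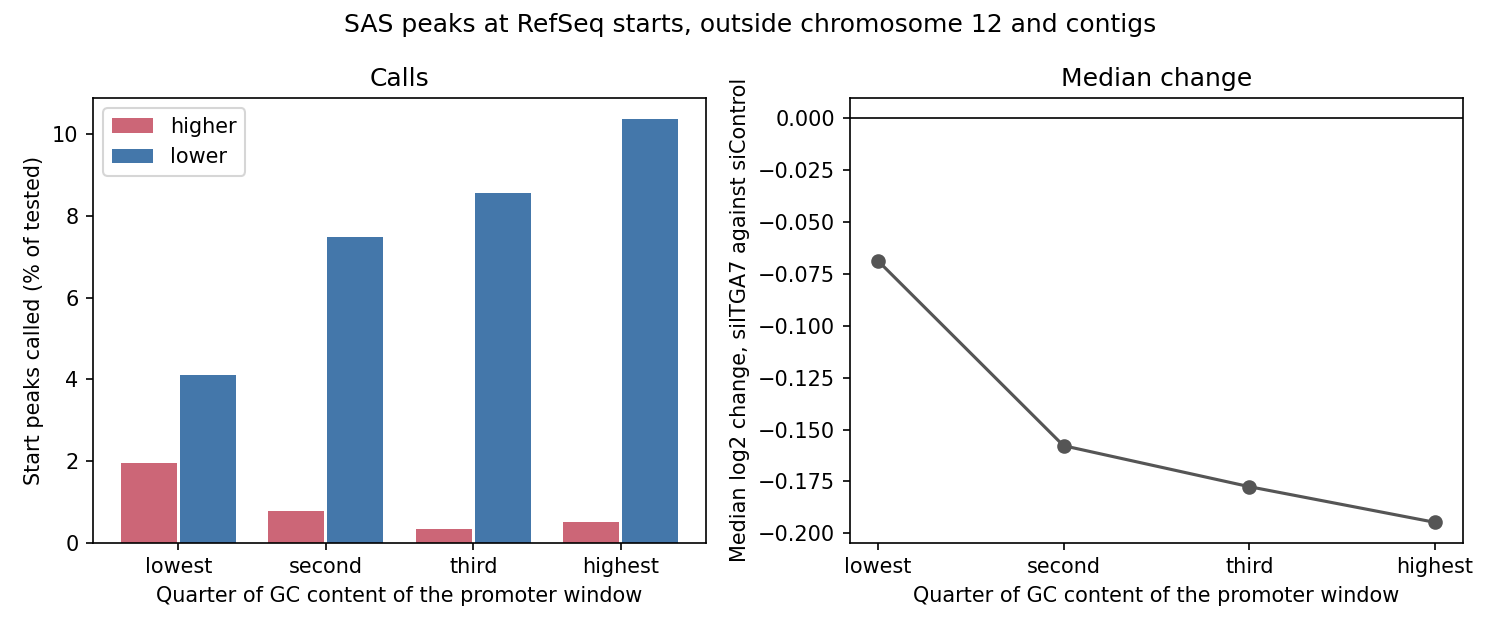
Percentage of SAS start peaks called higher or lower (left) and median log2 change (right) by class of GC content of the RefSeq promoter window, outside chromosome 12 and contigs. The share of lower peaks runs from 4.10% in the class of lowest GC to 10.4% in the class of highest GC.

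Motifs were searched on both strands of these windows. GGGCGG, the GC box bound by SP and KLF factors, was present in 80.5% of windows at lower peaks, 68.2% at peaks without a call and 41.5% at higher ones, and in 45.0% of all 35116 RefSeq windows. It is made of G and C alone, and its share ran from 30.4% in the class of lowest GC to 95.8% in the highest. TATAAA, the core of the TATA box, showed the opposite order with 2.52, 5.64 and 20.2% (11.5% of all windows). TGACTCA, the site of AP-1, which reads TGAGTCA on the other strand, was in 2.64, 5.46 and 11.7% (4.95% of all windows). CCAAT, bound by NFY, was in 39.1, 35.1 and 35.1% (34.6% of all). The ETS core CCGGAAG was in 16.2, 17.5 and 5.32% (10.3% of all) and the TEAD motif GGAATG in 8.93, 11.6 and 13.8% (14.03% of all). These shares also moved with GC content. From the class of lowest GC to that of highest, TATAAA went from 13.0 to 1.73% and the AP-1 site from 11.9 to 1.93%. CCAAT went from 42.5 to 23.6% and GGAATG from 17.4 to 5.60%. CCGGAAG was highest in the middle classes, at 14.5, 22.3, 19.0 and 13.3% from lowest to highest GC. Motif and GC content were not separated. None of these motifs contains another, and a match of letters is not a bound site.

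The promoters of protein-coding genes that the naming rule took at or near the start are shown to let a reader compare a pair that rose with 3 that fell. They are the 250 bases before the RefSeq start (GRCh38.p14), 5′ to 3′ on the strand of the gene, with every match to the motifs above in capitals. OAZ1 lies at chr19:2269236-2269485 on the plus strand, SRP14 at chr15:40039182-40039431 on the minus strand, KIAA1191 at chr5:176361765-176362014 on the minus strand, GNB4 at chr3:179451471-179451720 on the minus strand and AGGF1 at chr5:77030154-77030403 on the plus strand.
OAZ1 (rose): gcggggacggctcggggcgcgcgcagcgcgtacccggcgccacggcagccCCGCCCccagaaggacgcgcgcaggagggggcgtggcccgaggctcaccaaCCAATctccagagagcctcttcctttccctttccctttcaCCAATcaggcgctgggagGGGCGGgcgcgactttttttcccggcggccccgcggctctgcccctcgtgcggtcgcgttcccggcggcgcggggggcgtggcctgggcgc
SRP14 (rose): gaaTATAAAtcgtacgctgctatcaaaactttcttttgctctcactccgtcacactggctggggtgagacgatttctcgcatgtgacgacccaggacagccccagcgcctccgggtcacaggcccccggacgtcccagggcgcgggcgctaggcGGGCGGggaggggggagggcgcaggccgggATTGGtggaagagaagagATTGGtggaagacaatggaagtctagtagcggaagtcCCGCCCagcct
KIAA1191 (fell): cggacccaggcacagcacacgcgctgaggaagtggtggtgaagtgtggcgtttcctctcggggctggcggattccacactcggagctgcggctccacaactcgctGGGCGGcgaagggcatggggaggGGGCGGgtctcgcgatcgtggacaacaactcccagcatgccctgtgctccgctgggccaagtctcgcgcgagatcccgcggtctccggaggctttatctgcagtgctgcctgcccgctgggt
GNB4 (fell): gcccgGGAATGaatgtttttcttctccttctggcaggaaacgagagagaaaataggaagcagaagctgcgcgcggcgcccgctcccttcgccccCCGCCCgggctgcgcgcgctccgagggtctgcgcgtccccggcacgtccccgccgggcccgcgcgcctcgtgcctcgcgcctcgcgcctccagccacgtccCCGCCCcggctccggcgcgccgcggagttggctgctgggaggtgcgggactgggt
AGGF1 (fell): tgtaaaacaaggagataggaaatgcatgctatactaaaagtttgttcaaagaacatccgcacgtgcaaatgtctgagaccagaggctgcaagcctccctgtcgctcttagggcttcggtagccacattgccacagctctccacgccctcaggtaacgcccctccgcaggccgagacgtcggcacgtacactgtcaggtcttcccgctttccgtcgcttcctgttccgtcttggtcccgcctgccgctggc
The OAZ1 and SRP14 stretches each hold 2 CCAAT and 2 GC-box matches, and the SRP14 stretch also a TATAAA. KIAA1191 and GNB4 hold 2 GC-box matches each and no CCAAT, and GNB4 also a GGAATG. AGGF1 holds none of the 6 motifs, at 56.4% GC against 67.2% for KIAA1191 and 73.6% for GNB4. Of the pair that rose, OAZ1 had 75.2% GC, the highest of those shown, and SRP14 had 61.6%.

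OAZ1 encodes antizyme, which restrains polyamine synthesis by inhibiting ornithine decarboxylase. Its start peak (chromosome 19, 2269089 to 2271939) stood at 6.23, 6.25, 6.07 and 6.04 log2 CPM in siControl 1 to 4 and 7.14, 6.95, 6.89 and 7.10 in siITGA7 1 to 4. Every siITGA7 library lay above every siControl library, and the peak rose by 0.90 ± 0.10 (SE, adjusted p = 5.36e-12). In Cal33 the same peak fell by 0.47 ± 0.13 (adjusted p = 0.0187), a difference between lines of 1.26 ± 0.18 (adjusted p = 1.60e-06). SRP14, a subunit of the signal recognition particle, rose at its start by 0.83 ± 0.20 (adjusted p = 0.00293, or 0.0690 without siITGA7 replicate 2 and 0.0744 after thinning). A promoter-class peak inside KAT2A, the histone acetyltransferase GCN5, rose by 1.05 ± 0.20 (adjusted p = 6.76e-05). Its siControl libraries ran from 3.38 to 4.22 and its siITGA7 libraries from 4.73 to 5.06 log2 CPM.

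The rises that were greatest among stronger peaks outside chromosome 12 and contigs lay in introns or between genes. Names here give the gene that holds the peak or, between genes, the nearest start. The top one (chromosome 4, 49710845 to 49711914) lay 550102 bp from the start of LOC101927209 in pericentromeric sequence. It stood at 2.94, 4.49, 4.37 and 4.04 log2 CPM in siControl 1 to 4 and at 7.18, 7.18, 7.58 and 6.87 in siITGA7 1 to 4, a change of 3.25 ± 0.24 (adjusted p = 8.32e-06). An intronic peak of RSRC1, a splicing protein rich in arginine and serine, stood at 2.87, 3.84, 3.21 and 3.04 and then at 4.86, 5.37, 5.82 and 4.94 log2 CPM, a rise of 2.24 ± 0.21 (adjusted p = 3.04e-17). RSRC1 had 6 higher peaks of 12 tested, so the rise was not limited to 1 peak.

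Other peaks of this group belong to genes of varied roles. A peak in RELL1, a relative of the TNF receptor family member RELT, rose by 1.91 ± 0.18 (adjusted p = 2.12e-16), from 3.25 to 4.11 log2 CPM over siControl libraries to 5.24 to 5.88 over siITGA7 libraries. A peak of 210 bp in INO80, the ATPase of a nucleosome remodelling complex, rose by 1.72 ± 0.18 (adjusted p = 1.09e-12), from 3.56 to 4.66 to 5.04 to 6.08 log2 CPM. A peak nearest to IRF4, a transcription factor of lymphocytes whose start is 77538.5 bp away, rose by 1.93 ± 0.20 (adjusted p = 3.82e-14). The peak in SNTG2, a syntrophin of the dystrophin complex, rose by 2.09 ± 0.17, and that near LOC124902630 by 2.31 ± 0.18. Peaks near the uncharacterised loci LOC124904523, LOC105375567 and LOC101927914 rose by 1.92 ± 0.21, 1.73 ± 0.16 and 1.73 ± 0.15. These calls held without any 1 library, with the batch block, with DESeq2 and after thinning.

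**Figure D4:**
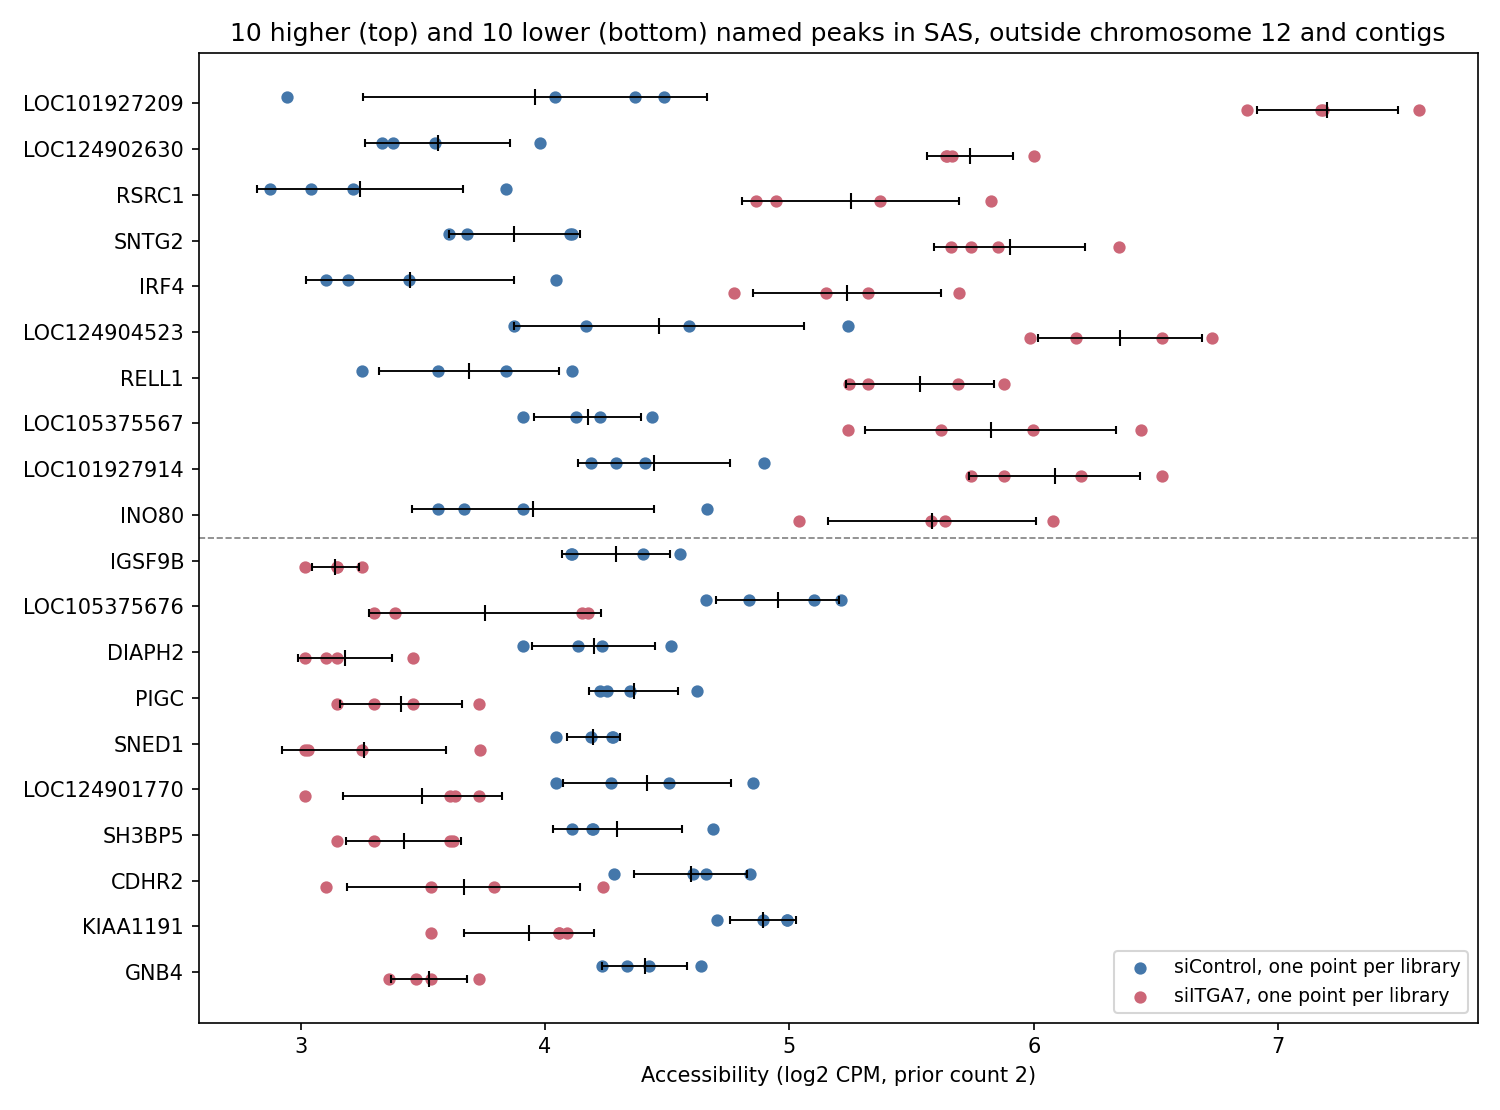
Accessibility (log2 CPM, x axis) of the 10 higher peaks and 10 lower peaks that the naming rule took outside chromosome 12 and contigs, 1 point per library, with black bars for the mean ± SD (n = 4). The groups do not overlap in any row, which the rule required, and the top peak goes from 2.94 to 4.49 in siControl to 6.87 to 7.58 in siITGA7.

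Lower peaks were changed less and sat mostly at gene starts. The greatest fall among the named ones was at a promoter-class peak at an end of IGSF9B, a synaptic adhesion protein. The RefSeq starts used hold none for this gene, so whether that end is its start was not settled. The nearest start they hold lay 69936 bp away. The peak had 61, 22, 61 and 56 counts in siControl 1 to 4 and 4, 9, 7 and 11 in siITGA7 1 to 4. That peak fell by 1.25 ± 0.26 on the log2 scale (adjusted p = 0.000314), and 3 of 5 tested peaks of the gene were lower. DIAPH2, a formin that builds actin filaments, stood at 4.14, 3.91, 4.23 and 4.52 log2 CPM and then at 3.02, 3.10, 3.15 and 3.46, a fall of 1.10 ± 0.26 (adjusted p = 0.00187). No siITGA7 library reached the lowest siControl library there. In Cal33 the DIAPH2 peak had a change of 0.28 ± 0.14 (adjusted p = 0.217).

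The start of PIGC, an enzyme subunit of GPI anchor synthesis, fell by 1.02 ± 0.24 (adjusted p = 0.00183). That of GNB4, a beta subunit of G proteins, fell by 0.95 ± 0.24 (adjusted p = 0.00355, or 0.0561 with DESeq2). GNB4 libraries ran from 4.23 to 4.64 log2 CPM in siControl and from 3.36 to 3.73 in siITGA7. The KIAA1191 start went from 4.70 to 4.99 in siControl to 3.54 to 4.09 in siITGA7, a fall of 0.97 ± 0.20. CDHR2, a protocadherin of the intestinal brush border, fell by 0.97 ± 0.22 (adjusted p = 0.00126). SNED1, a matrix glycoprotein, fell by 1.02 ± 0.25, and SH3BP5, a protein that binds JNK, by 0.98 ± 0.25. Both of these calls were lost without siITGA7 replicate 4 (adjusted p = 0.0598 and 0.0670). AGGF1, an angiogenic factor, fell by 0.94 ± 0.25 (adjusted p = 0.00874, or 0.0532 without siITGA7 replicate 2). Intergenic peaks near LOC105375676 on chromosome 8 and LOC124901770 on chromosome 7 fell by 1.10 ± 0.21 and 1.01 ± 0.23. The LOC124901770 peak did not pass with DESeq2 or after thinning (adjusted p = 0.0552 and 0.0846). SHH, the hedgehog ligand, was the other gene with 3 lower peaks, of 6 tested.

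Long noncoding RNA genes moved both ways. An intronic peak of CIBAR1-DT rose by 1.23 ± 0.17 (adjusted p = 5.44e-09), and by 1.04 ± 0.18 in Cal33 (adjusted p = 0.000573). Its siControl libraries stood at 4.05 to 4.49 and its siITGA7 libraries at 5.12 to 5.65 log2 CPM. The start of LINC02280 rose by 1.05 ± 0.21 (adjusted p = 0.000152, or 0.101 after thinning), from 3.54 to 3.77 to 4.58 to 4.73 log2 CPM. The start of FRMD3-AS1 fell by 0.86 ± 0.21 (adjusted p = 0.00289). At an end of LINC01098 a promoter-class peak fell by 0.88 ± 0.21 (adjusted p = 0.00306, or 0.0537 with DESeq2 and 0.245 after thinning). A lncRNA promoter that is also the start of ZC3H13, part of the RNA methylation machinery, fell by 0.91 ± 0.22 (adjusted p = 0.00312).

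Calls were spread unevenly over the chromosomes. Chromosome 17 had 154 higher and 21 lower of 2470 tested peaks, with a median log2 change of 0.13, and chromosome 22 had 25 and 2 of 826, with a median of 0.09. At the other end chromosome 18 had 21 higher and 28 lower of 534 (median -0.11), chromosome 4 had 44 and 54 of 1189 (median -0.12) and chromosome X 8 and 39 of 971 (median -0.12). On chromosome X the same peaks had a median of -0.11 in Cal33, and on chromosome 17 one of -0.01. Outside chromosome 12 the 4 windows of 5 Mb with the greatest share of higher peaks adjoin centromeres. On chromosome 1 from 140 to 145 Mb 19 of 27 tested peaks were higher, on chromosome 2 from 90 to 95 Mb 9 of 23, on chromosome 4 from 45 to 50 Mb 9 of 27 and on chromosome 10 from 40 to 45 Mb 16 of 63. The 4 genes with most higher peaks outside chromosome 12 came from such windows: LOC101929814 on chromosome 1 with 19 of 20, LOC105378267 on chromosome 10 with 14 of 17, LOC101927209 with 9 of 11 and LOC124905368 on chromosome 2 with 7 of 8. Such sequence is rich in repeats, and no source used here states how reads that fit several places were treated. Counts there may be shared between copies.

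**Figure D5:**
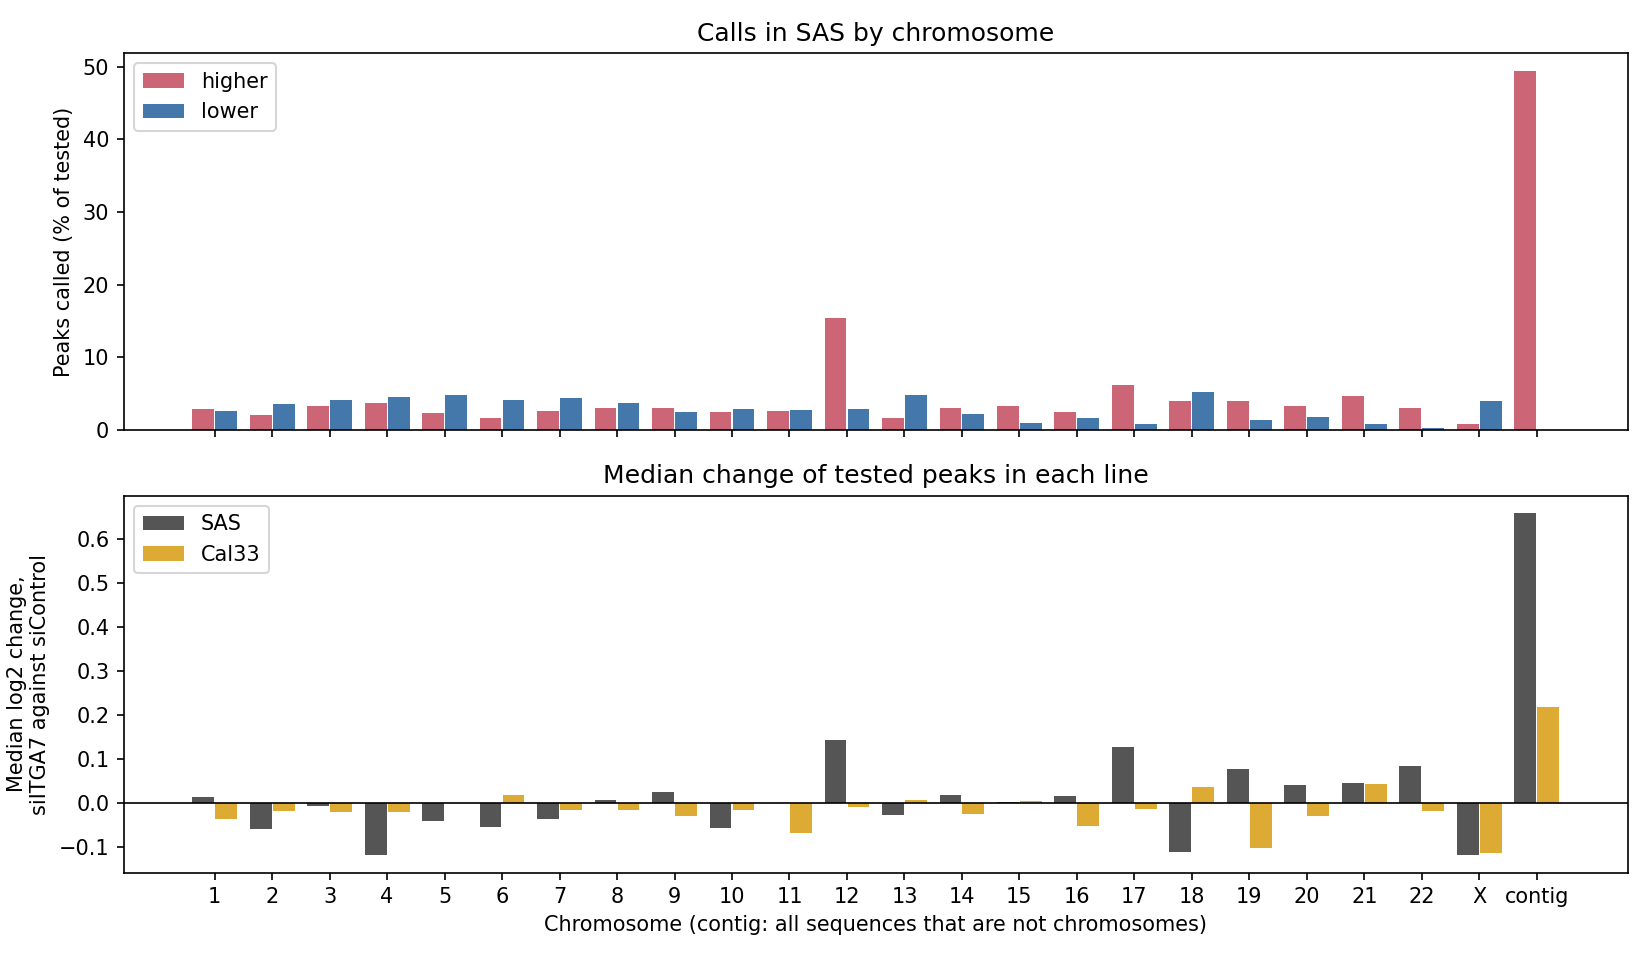
Top, percentage of tested SAS peaks called higher or lower on each chromosome and on all contigs. Bottom, median log2 change of the peaks tested in SAS, in SAS and, where also tested, in Cal33. Higher calls reach 15.5% on chromosome 12 and 49.4% on contigs, where 0 peaks were lower. Chromosome Y is not drawn.

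On chromosome 12 the rise lay on the short arm and next to the centromere. Windows of 5 Mb from 0 to 40 Mb with at least 20 tested peaks had medians of 0.20 to 0.80, with 139 of 344 peaks higher and 0 lower from 10 to 15 Mb and 134 higher and 8 lower of 405 from 25 to 30 Mb. From 45 Mb on the medians were -0.22 to 0.15, and from 130 to 135 Mb 0 peaks were higher and 14 lower of 99. Distance to the start showed within this chromosome too: 18 of 579 peaks within 1 kb were higher and 51 lower, against 287 higher and 24 lower of 1468 at 10 to 100 kb and 67 and 2 of 173 over 100 kb away. In Cal33 the chromosome 12 peaks had a median of -0.01. Copy number was not measured here, and its part in the chromosome 12 result was not tested.

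Among chromosome 12 peaks, those near LINC02371 and LOC124902883 rose by 1.91 ± 0.25 and 1.69 ± 0.13, and peaks near LOC105369618 and GRIN2B, a glutamate receptor subunit, by 1.21 ± 0.18 and 1.22 ± 0.19. The lower peaks of this chromosome were starts for the most part. FBXO21, of a ubiquitin ligase, fell by 0.87 ± 0.22 and HCFC2, a relative of host cell factor, by 0.82 ± 0.19. The FBXO21 peak did not pass with DESeq2 (adjusted p = 0.0828). ERGIC2, a protein of transport from the endoplasmic reticulum, fell by 0.76 ± 0.23 (adjusted p = 0.0221) and AMDHD1, an enzyme of histidine breakdown, by 0.74 ± 0.19 (adjusted p = 0.00686). The ERGIC2 call was lost without siITGA7 replicate 3 or 4 (adjusted p up to 0.248) and the AMDHD1 call without siITGA7 replicate 2 (0.0507). A peak near KSR2, a scaffold of the MAPK cascade, fell by 0.82 ± 0.21, but did not pass with DESeq2 or after thinning (adjusted p = 0.0629 and 0.118).

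Contig peaks gave the largest changes of all named peaks. The peak on chrUn_KI270333v1 held 9, 12, 40 and 22 counts in siControl 1 to 4 and 61, 159, 141 and 96 in siITGA7 1 to 4, although the latter libraries are shallower. It rose by 3.91 ± 0.42 (adjusted p = 0.00268). That on chrUn_KI270336v1 rose by 3.86 ± 0.20 (adjusted p = 3.11e-37) and that on chrUn_KI270466v1 by 3.28 ± 0.33 (adjusted p = 0.00203). In Cal33 their changes were 0.38 ± 1.18, 0.31 ± 1.04 and 0.36 ± 1.08, which did not pass (adjusted p = 0.887, 0.894 and 0.882), and the differences between the lines did not pass either (adjusted p = 0.266, 0.189 and 0.311). The caution about repeats holds for these peaks as well.

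Genes of matrix contact showed few calls against the 7.03% called over all tested peaks. Here and below, peaks are given to the gene that holds them or whose start is nearest. DESeq2 called fewer peaks in most lists, and 0 in both integrin lists and among epithelial junction genes. Laminin-binding integrins and their partners had 0 higher and 1 lower of 22 peaks (median log2 change -0.05), at the start of CD9, a tetraspanin. Other integrins had 0 and 1 of 33 (median 0.07), at the start of ITGAV, a receptor chain for RGD ligands. Laminins and basement membrane genes had 2 higher and 1 lower of 98 (median 0.03). An intronic peak of PLEC, the plakin of hemidesmosomes, rose by 0.44 ± 0.10 (adjusted p = 0.00153, or 0.0584 after thinning), from 6.31 to 6.74 to 6.90 to 7.12 log2 CPM. A peak in LAMA5, a laminin chain, fell by 0.86 ± 0.26 (adjusted p = 0.0265). CD9 fell by 0.56 ± 0.18 (adjusted p = 0.0384) and ITGAV by 0.53 ± 0.17 (adjusted p = 0.0407). The CD9 and LAMA5 calls were each lost without any of 4 single libraries and ITGAV without any of 5 (adjusted p up to 0.246, 0.0966 and 0.171). These were siControl 3 and 4 and siITGA7 1 and 4 for CD9, siControl 3 and siITGA7 1, 2 and 3 for LAMA5, and siControl 1 and 2 and siITGA7 2, 3 and 4 for ITGAV. With the batch block the adjusted p was 0.0569 for CD9 and 0.0580 for LAMA5.

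The dystroglycan complex, the other main laminin receptor of muscle, had 6 higher and 1 lower of 48 peaks (median 0.17), but 5 of the higher ones lay in SSPN on chromosome 12. The SSPN peak (sarcospan) that changed most clearly rose by 0.71 ± 0.16 (adjusted p = 0.00159, or 0.0636 after thinning). The start of DTNB, a dystrobrevin, fell by 0.63 ± 0.17 (adjusted p = 0.00766, or 0.0506 without siITGA7 replicate 3 and 0.112 after thinning). Of 125 peaks of focal adhesion genes 2 were higher and 1 was lower (median 0.07). A peak in an intron of PTK2, the focal adhesion kinase, rose by 1.53 ± 0.35 (adjusted p = 0.00143). Its level was low, 2.01 to 2.43 log2 CPM in siControl to 3.15 to 4.22 in siITGA7. A promoter-class peak at an end of FERMT1, kindlin 1, fell by 0.42 ± 0.13 (adjusted p = 0.0262), and a peak of TNS4, a tensin, rose by 0.48 ± 0.15 (adjusted p = 0.0382) with overlapping groups. FERMT1 was lost without siControl 4 or siITGA7 1 or 4 (adjusted p up to 0.0801) and TNS4 without siControl 2, 3 or 4 or siITGA7 2, 3 or 4 (up to 0.187). With the batch block the adjusted p of TNS4 was 0.0653.

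Genes of cell state changed at single sites. EMT drivers and mesenchymal genes had 2 higher and 1 lower of 47 peaks (median -0.01). A peak at the end of ZEB2, a repressor of epithelial genes, stood at 3.55, 2.95, 3.58 and 3.43 log2 CPM in siControl 1 to 4 and 4.95, 4.82, 4.61 and 4.91 in siITGA7 1 to 4. It rose by 1.46 ± 0.21 (adjusted p = 4.97e-08), with no overlap. The start of TGFBR1, a TGF-beta receptor, fell by 0.54 ± 0.15 (adjusted p = 0.0113, or 0.107 with DESeq2 and 0.173 after thinning). Epithelial junction genes had 4 higher and 1 lower of 80 (median 0.13). JUP, plakoglobin, rose by 0.92 ± 0.25 (adjusted p = 0.0101, or 0.0602 without siControl replicate 4) and PKP1, a plakophilin, by 0.60 ± 0.17 (adjusted p = 0.0137). PKP1 was lost without siControl 1 or 2 or siITGA7 4 (adjusted p up to 0.114). Squamous identity genes had 6 higher and 0 lower of 99 (median 0.11). A peak at an end of KRT15, a basal keratin, rose by 0.55 ± 0.10 (adjusted p = 4.14e-05, or 0.0629 after thinning), from 6.35 to 6.46 to 6.84 to 7.05 log2 CPM. An intronic peak of GRHL2, a grainyhead factor of epithelia, rose by 0.99 ± 0.24 (adjusted p = 0.00293). Keratinocyte differentiation genes had 4 higher and 0 lower of 25 (median 0.21), near KRT1, KRT13, S100A9 and ZNF750. That is 16% of the list beside 7.03% of all tested peaks, but DESeq2 called 0 of the 25. Of these ZNF750, an epidermal zinc finger factor, rose by 0.56 ± 0.16 (adjusted p = 0.0117), KRT1 by 0.90 ± 0.25 (0.0108) and S100A9 by 0.77 ± 0.23 (0.0218). ZNF750 was lost without siITGA7 1 or 4 (adjusted p up to 0.0666), KRT1 without siITGA7 1 or 2 (0.0744) and S100A9 without siControl 1 or 4 or siITGA7 1, 2 or 4 (0.0895).

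Signalling genes gave mixed counts. Targets of YAP and TEAD had 2 higher and 1 lower of 146 peaks (median 0.06). An intronic peak of AMOTL2, a YAP-binding angiomotin, was down by 0.58 ± 0.14 (adjusted p = 0.00207, or 0.0572 after thinning) although the groups just overlapped. A peak near CCN1 rose by 0.59 ± 0.16 (adjusted p = 0.00884) and one in WWTR1, the gene of TAZ, by 0.47 ± 0.15 (0.0340). CCN1 was lost without siControl 4 or siITGA7 4 (adjusted p up to 0.0849) and WWTR1 without siControl 3 or 4 or siITGA7 2 or 3 (0.244). Of 31 peaks of AP-1 members 1 was higher and 2 were lower (median -0.01). FOSL1 rose by 1.48 ± 0.23 at an exonic peak (adjusted p = 9.87e-07), whose groups overlapped at 2.69 to 3.68 and 3.61 to 5.10 log2 CPM. ATF2 fell by 0.40 ± 0.12 (adjusted p = 0.0245) and FOSL2 by 0.29 ± 0.09 (0.0407). ATF2 was lost without siControl 4 or siITGA7 2 or 3 (adjusted p up to 0.166) and FOSL2 without siControl 3 or siITGA7 2, 3 or 4 (0.192). With the batch block the adjusted p was 0.0593 for WWTR1 and 0.0659 for FOSL2.

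EGF receptor and MAPK feedback genes had 4 higher and 2 lower of 85 peaks (median 0.01). A promoter-class peak near SPRED2, an inhibitor of Ras signalling, fell by 0.71 ± 0.16 (adjusted p = 0.00163, or 0.166 after thinning). ETV5, an ETS factor induced by MAPK, fell by 0.38 ± 0.10 (adjusted p = 0.00730). An intronic peak of EGFR rose by 1.25 ± 0.29 (adjusted p = 0.00140) from 2.46 to 3.13 to 3.15 to 4.28 log2 CPM. Without siITGA7 replicate 4 the EGFR and ETV5 calls were lost (adjusted p = 0.112 and 0.179). PI3K, AKT and mTOR genes had 3 higher and 3 lower of 82 (median 0.05). The start of IRS2, an adaptor of the insulin receptor, stood at 6.15, 6.23, 6.25 and 6.03 log2 CPM in siControl 1 to 4 and 5.49, 5.40, 5.40 and 5.83 in siITGA7 1 to 4. It fell by 0.60 ± 0.13 (adjusted p = 0.000487, or 0.0893 after thinning). RPTOR, the raptor subunit of mTORC1, rose by 0.55 ± 0.17 (adjusted p = 0.0284) and was lost without siControl 1, 2 or 4 or siITGA7 2 or 3 (adjusted p up to 0.147).

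Genes that act in the nucleus moved in both directions. DNA damage genes had 0 higher and 2 lower of 29 peaks (median -0.23), with 0 higher and 7 lower at an unadjusted p under 0.05. DESeq2 called 0 of the 29. The start of CHEK1, a checkpoint kinase, fell by 0.56 ± 0.15 (adjusted p = 0.00837, or 0.0834 with DESeq2 and 0.208 after thinning), and that of MRE11, a nuclease of break repair, by 0.52 ± 0.14 (adjusted p = 0.0109, or 0.144 without siITGA7 replicate 2). Start peaks of this list had a median of -0.25, beside -0.16 over all 11080 tested start peaks, of which 0.921% were higher and 7.69% lower. Proliferation genes had 2 higher and 1 lower of 32 (median -0.10). The start of MCM6, a replication helicase subunit, was down by 0.92 ± 0.21 (adjusted p = 0.00183, or 0.310 after thinning). TOP2A, a topoisomerase, rose at a nearby peak by 0.93 ± 0.25 (adjusted p = 0.00872) and CDC6, a replication licensing factor, by 0.86 ± 0.25 (0.0147). TOP2A was lost without siITGA7 2 or 4 (adjusted p up to 0.0649) and CDC6 without siControl 3 or siITGA7 1 or 2 (0.146).

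Chromatin regulators had 9 higher and 6 lower of 109 peaks (median 0.00326), with 5 of 36 start peaks lower and 1 higher. Calls made up 13.8% of the list beside 7.03% of all tested peaks. Over all tested start peaks 7.69% were lower and 0.921% higher, and whether the list differs was not tested. HMGB1, an abundant nucleosome-bending protein, rose by 1.60 ± 0.15 at the end of its transcript and SETD5 by 1.62 ± 0.18 at an internal promoter-class peak. In CHD4, the ATPase of the NuRD complex on chromosome 12, a peak rose by 1.81 ± 0.34 (adjusted p = 6.48e-05) from 1.11 to 3.08 to 3.63 to 4.22 log2 CPM. Nuclear lamina and LINC genes had 1 higher and 3 lower of 51 (median -0.05), or 7.84% called. Of their 16 start peaks 3 were lower, beside 7.69% of all tested start peaks. The start of TPR, a protein of the nuclear pore basket, stood at 6.77, 6.99, 6.83 and 6.51 log2 CPM in siControl 1 to 4 and 6.08, 6.12, 6.13 and 6.45 in siITGA7 1 to 4. It fell by 0.54 ± 0.11 (adjusted p = 0.000309), and the pore gene NUP153 fell by 0.51 ± 0.15 (adjusted p = 0.0143, or 0.206 without siITGA7 replicate 4). An intronic peak of LMNA, the gene of lamins A and C, rose by 1.04 ± 0.27 (adjusted p = 0.00542, or 0.0808 without siITGA7 replicate 1).

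Of 45 peaks of p53 targets and apoptosis genes 0 were called by edgeR and 0 by DESeq2, with 6 higher and 4 lower at an unadjusted p under 0.05. Of 36 peaks of interferon response genes 0 were called by either tool, with 1 higher and 1 lower before adjustment. In the list of inflammatory and NF-kB genes, 37 peaks were tested, 2 of them higher and 1 lower (median 0.05), or 8.11% beside 7.03% of all tested peaks. DESeq2 called 0 of these 37. The start of PTGS2, cyclooxygenase 2, fell by 0.64 ± 0.19 (adjusted p = 0.0243), and peaks near CSF2 and CCL2, cytokine genes, rose by 0.37 ± 0.11 (0.0235) and 0.84 ± 0.27 (0.0344). Each was lost without some libraries: PTGS2 without siControl 4 or siITGA7 1 or 4 (adjusted p up to 0.123), CSF2 without siControl 3 or 4 or siITGA7 1 or 2 (0.119) and CCL2 without siControl 3 or siITGA7 1, 2 or 3 (0.240). Hypoxia genes had 1 higher and 1 lower of 82 (median 0.07). A peak near VEGFA, the vascular growth factor, rose by 1.10 ± 0.28 (adjusted p = 0.00498, or 0.110 without siITGA7 replicate 2), and the start of EGLN1, an oxygen sensor, fell by 0.44 ± 0.12 (adjusted p = 0.0142). EGLN1 was lost without siControl 4 or siITGA7 4 (adjusted p up to 0.0723). Constitutive control genes had 0 calls by edgeR or DESeq2 among 41 peaks (median 0.04), with 1 higher and 3 lower at an unadjusted p under 0.05, and 10 of them were start peaks with a median of -0.10.

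Genes of other cell types were called mainly through chromosome 12. Of 9 fibroblast marker peaks 0 were called by edgeR or DESeq2, and 0 passed an unadjusted p of 0.05. Endothelial and blood markers had 13 higher and 0 lower of 76 (median 0.19), with 12 of the 13 in VWF, the clotting factor gene, and 1 in CD4, both on chromosome 12. The named VWF peak rose by 1.18 ± 0.26 (adjusted p = 0.000911) and the CD4 peak by 0.45 ± 0.11 (adjusted p = 0.00312, or 0.214 after thinning). Neuronal genes had 99 higher and 1 lower of 215 (median 0.49), and 97 of the higher ones were nearest to or within GRIN2B. A strong peak nearest to GRIN2B (chromosome 12, 14084953 to 14086350) stood at 5.29, 5.57, 5.09 and 5.34 log2 CPM in siControl 1 to 4 and 6.29, 6.35, 6.49 and 6.03 in siITGA7 1 to 4, a rise of 1.01 ± 0.13 (adjusted p = 2.90e-10). The remaining pair lay elsewhere, in NRXN3, a neurexin on chromosome 14 (1.55 ± 0.28, adjusted p = 1.70e-05), and in DLG2, a synaptic scaffold on chromosome 11 (1.79 ± 0.34, adjusted p = 8.66e-05). PTPRC, PECAM1, COL3A1 and HBB had no start peak at all, and the summed start peaks of the endothelial and blood markers did not differ detectably between groups (exact permutation p = 0.200 for both).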

How the data were processed

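ATAC-seq libraries of 8 SAS cultures were analysed, with 8 Cal33 libraries for comparison. The deposited tables hold raw read counts per peak for a peak set shared by both lines; demultiplexing used bcl2fastq 2.20.0, per the submitters' processing notes. No source used here names the aligner, the peak caller or the treatment of multi-mapping reads. The deposited normalised signal columns were not tested. Peak positions, classes and distances come from the deposited annotation (GRCh38). Genes were assigned by position among RefSeq genes of GRCh38.p14 (a start within 1 kb, else the gene holding the peak, else the nearest start), which named 164330 of 164980 peaks; 502 of 512 listed genes had a peak.

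Counts were tested with edgeR 4.0.16 (R 4.3.3, TMM, filterByExpr, robust quasi-likelihood, Benjamini-Hochberg over all tested peaks, threshold 0.05). The procedure was tried on counts simulated at these library sizes. It called 68 of 95 peaks changed by 1 on the log2 scale (71.6%) and 11 of 96 changed by 0.5 (11.5%). Changes of the smaller size were mostly missed, so a list without calls may still hold them. DESeq2 1.42.0, limma-voom 3.58.1, other scalings and filters, thinning, a replicate block and omitted libraries were alternatives. Shares of counts were compared by exact permutation over 70 arrangements. Named peaks had to be called with groups apart, at or above the median level, ranked by change (10 each way, 5 each on chromosome 12, 3 each for contigs, lncRNA and protein-coding promoters, none being lower on contigs), plus the 3 lowest p per gene list. Some peaks that this rule took are not reported here. Members and lists were chosen with earlier results of these data known. The labels' batch numbers pair the libraries; deviations of same-numbered libraries correlated at 0.00621, 0.00185, -0.00226 and -0.0270. P-values measure the spread between these cultures of 1 line. In edgeR that spread was largely shared over peaks (median prior degrees of freedom 149). A p-value of a single peak thus does not rest on the spread at that peak alone. In bulk counts, fewer cells with an open site and less cutting per cell cannot be told apart.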

Additional observations from a re-analysis of the deposited data

Results flagged for a closer look

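In groups of 4 libraries 1 value was flagged where it stood apart from the other 3 by most of the range. Of 212 groups checked 13 had such a library, and chance flags about 1 in 20 groups. All values are log2 CPM. In siITGA7 1, the shallowest library, these were 6.00 near LOC124902630, 3.02 near LOC124901770, 3.54 at KIAA1191, 2.20 at ZC3H13 and 5.37 at FERMT1. In siControl 3 they were 3.89 near S100A9, 5.74 in AMOTL2 and 5.56 near SPRED2, and in siControl 4 they were 4.69 at SH3BP5 and 4.37 near CCN1. The others were 5.06 for TNS4 in siControl 1, 5.12 for SETD5 in siITGA7 2 and 6.45 for TPR in siITGA7 4.

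The change differed between SAS and Cal33 at 18 of 96 named peaks by the interaction contrast (edgeR, adjusted p under 0.05 over all peaks in that fit), beside 0.761% of all peaks. These peaks were named for their change in SAS, so the share that differs is partly fixed by that choice and is a description. The peaks of LOC124902630, LOC124904523, RELL1, LINC02371, LOC105375567, DLG2 and SETD5 were too low in Cal33 to be tested there, so the sizes of their differences rest on few Cal33 counts. SAS minus Cal33 log2 changes were above 0 for LOC124902630 (4.05), LOC124904523 (3.35), RELL1 (3.35), LINC02371 (2.57), LOC105375567 (2.45), INO80 (2.42), DLG2 (2.33), SETD5 (2.26), LOC101927914 (2.10), OAZ1 (1.26) and LINC02280 (1.15). They were below 0 for DIAPH2 (-1.48), FRMD3-AS1 (-1.33), SH3BP5 (-1.23), ZC3H13 (-1.09), SPRED2 (-1.07), KSR2 (-0.99) and HCFC2 (-0.93). Of these the OAZ1 and FRMD3-AS1 peaks were also called in Cal33, in the opposite direction to SAS.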

How the results depend on the processing

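Called peaks numbered 3067 over all and 2406 outside chromosome 12 and contigs. These counts became 6577 and 5984 with no filter on low counts, 1396 and 1064 with a mean of at least 50 counts, 1036 and 739 with DESeq2, and 515 and 363 after thinning; fewer peaks were tested under the stricter filter and after thinning, and the cause was not tested for the others. Omitting 1 library gave 1977 to 3796 and 1499 to 3085, and omitting both libraries of a batch 1446 to 2834 and 1049 to 2374. Higher calls made up 57.5% of all calls, but 35.3% with no filter, 74.7% with DESeq2 and 69.1% after thinning. The replicate block left 2575 and 2002 calls. Within 1 kb of a start lower calls outnumbered higher calls in each of these alternatives.

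The share within 1 kb of a start differed by -3.04 points. The replicate block kept that difference with an exact p of 0.125, the smallest that 4 pairs allow, and omitting 1 library gave -3.22 to -2.92. The count of peaks that differ between the lines was 722, and 421 to 819 when 1 SAS library was omitted. Over 95 called named peaks 2077 alternative values were compared: 1781 kept the call, 296 lost it and 0 reversed. DESeq2 ended 39 of these calls, thinning 31 and the block 5, and 42 peaks kept the call throughout. Depth limits weak peaks most, since the shallowest library held a median of 9 counts in tested peaks.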
